A study of Mus musculus with 4 samples.

Results

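The 36 genes described here encode the glucose transporters, enzymes, lactate carriers and control kinases of glycolysis and the pentose phosphate pathway. They were chosen by symbol from the textbook pathways, and each symbol matched 1 of the 50600 genes in the count tables. RNA was sequenced in 4 libraries of mouse primary cells of the C57BL/6NJ strain that were labelled regulatory T cell and make up a single group, called replicates 1 to 4. The labels give no treatment and no engineered allele, list the age as unknown and the sex as not collected, and place the 4 biosamples under 1 donor record; they do not say which libraries came from separate animals, and a p-value here measures only the spread between these libraries, part of which may be technical. A differentiation protocol for CD4 T cells is cited, and the count columns carry the word activated beside a mark of 0 h. There was no second condition, so the comparisons were those between isoenzymes within a library and those between libraries.

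In glycolysis, glucose is taken up, phosphorylated, split and oxidised to pyruvate, which is either reduced to lactate and exported or passed to the mitochondria. The pentose phosphate pathway branches off at glucose 6-phosphate; its oxidative arm makes NADPH and its non-oxidative arm exchanges sugars between ribose 5-phosphate and glycolysis. Several steps are served by isoenzymes from separate genes, which differ in kinetics and in the tissues that use them. T cells are known to raise glycolysis when activated, and regulatory T cells are known to depend on it less than effector T cells do.

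Total counts ran from 23000465 to 62090744 per library, with replicates 1 and 3 the shallower pair. Markers of T cells were high in every library, led by Trac, the T cell receptor alpha constant gene, at 3435 ± 137 TPM (SD, n = 4; TPM is the count per exon base scaled to the same sum in every library). Of the 6 regulatory T cell markers, the surface receptors Izumo1r and Tnfrsf18 averaged 167 ± 8.51 TPM and 107 ± 3.80 TPM. The lineage factor Foxp3 lay at 8.28 ± 0.867 TPM, Ctla4 at 7.77 ± 0.959 TPM, Il2ra at 5.52 ± 2.76 TPM and Ikzf2 at 1.34 ± 0.194 TPM. The highest summed levels of 5 other marker lists were 36.6 TPM for B cells (highest member Cd79b, 9.31 ± 3.78 TPM), 7.70 TPM for macrophages and neutrophils (Lyz2, 1.78 ± 0.919 TPM), 3.56 TPM for red cells and platelets (Hbb-bs, 1.37 ± 1.17 TPM), 9.22 TPM for muscle (Tnnt3, 8.06 ± 0.690 TPM) and 0.0477 TPM for liver (Alb, 0.0119 ± 0.0238 TPM). Exons of Gm49368 on the same strand cover 68.7% of the exon bases of the myeloid marker Itgam. Fragments there were not counted, so the level of Itgam and the myeloid sum are understated. In bulk RNA, fewer cells of a type and less RNA per cell cannot be told apart. Xist stood at 141, 148, 0.460 and 0.271 TPM in replicates 1 to 4, and the Y-linked gene Ddx3y at 0.238, 0.0988, 75.2 and 76.1 TPM. Replicates 1 and 2 thus held sex-linked RNA of female cells and replicates 3 and 4 that of male cells. The 4 libraries therefore came from more than 1 animal, although the labels place them under 1 donor record.

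Nearly the whole set was detected. At a threshold of 1 TPM in all 4 libraries, 35 of the 36 genes were detected, against 70.5% of the protein-coding genes with a count and 23.1% of all genes in the tables. The exception was Hk2. The median of the 36 mean levels was 47.2 TPM, against 15.2 TPM for protein-coding genes with a count, and 30 genes stayed at 10 TPM or more in every library. 9 of these stayed at 100 TPM or more: Ldha, Pkm, Aldoa, Gpi1, Eno1, Gapdh, Pdk1, Taldo1 and Tkt. Only Hk2, Hk3, Aldoc, Slc16a3 and Pfkfb1 stayed below 5 TPM in all 4. The set took 0.352 ± 0.00714% of all TPM and 0.466 ± 0.0129% of all counts (SD, n = 4).

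**Figure D1:**
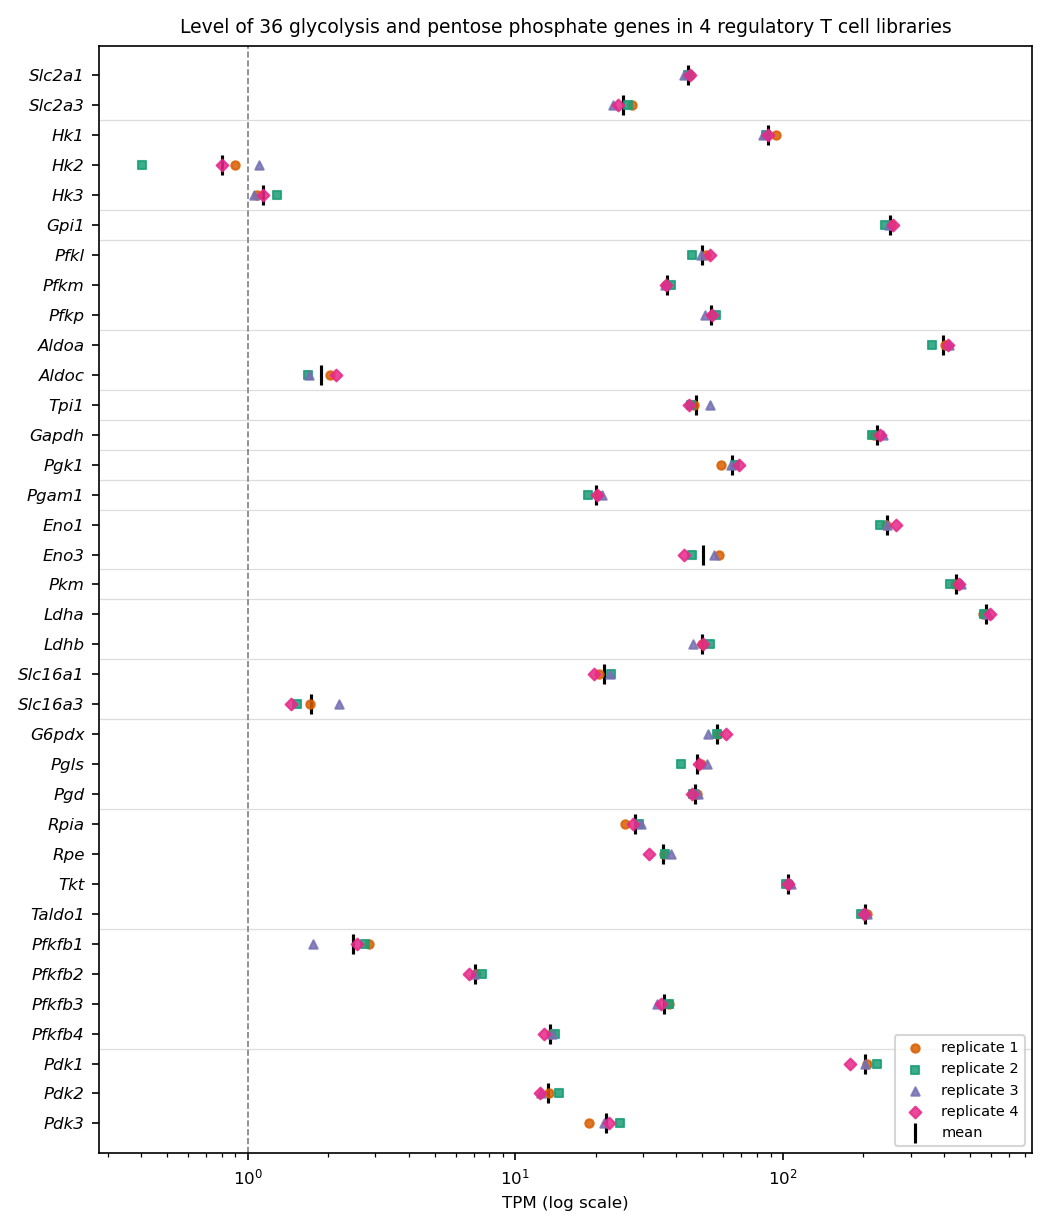
Each point is the level of 1 gene in 1 library, in TPM on a log axis, with the mean of 4 libraries as a black bar; rows run in pathway order and lines part the steps. The points of a gene lie close together beside the range between genes, which runs from 0.802 TPM on average for Hk2 to 576 TPM for Ldha, and the dashed line marks the detection threshold of 1 TPM.

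The level per base depends on the length assumed for each gene. The deposited length is the sum of all exon bases of all transcripts, which exceeds the length of the annotated principal transcript for many members. With the principal transcript length in its place, 10 of the 36 genes came out more than 1.5-fold higher and none as much lower. These were Pgls, Rpia, Gapdh, Pgd, Eno1, Aldoa, Pfkfb1, Pfkp, Gpi1 and Hk1, with Pgls moving the furthest, by 2.93-fold. The lengths of all genes were changed and each library scaled again to the same sum, so these folds are not set by a gene's own length alone. Slc16a1, with 4426 bases by either length, came out at 0.694 of its level. Which transcripts the cells used was not measured by these gene counts. Orders between genes are therefore given below with both lengths where they differ.

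Glucose entry rested on 2 facilitative transporters with like levels. Slc2a1, the gene of GLUT1, the widespread transporter that activated T cells are known to raise, stood at 45.04, 44.2, 42.7 and 44.9 TPM in replicates 1 to 4. Slc2a3, the gene of the high-affinity transporter GLUT3, stood at 27.2, 26.4, 23.1 and 24.3 TPM. Per exon base Slc2a1 was the higher in all 4 libraries, with a log2 ratio to Slc2a3 of 0.81 ± 0.09 (SD, n = 4). That order rested on the gene lengths. Slc2a1 has 3506 exon bases and Slc2a3 has 7245, and before division by length Slc2a1 had a log2 ratio of -0.24 to Slc2a3. With principal transcript lengths Slc2a1 averaged 33.00 TPM and Slc2a3 32.1 TPM, a log2 ratio of 0.04. No order between the transporters can be drawn from these counts. Of 9 further sugar transporter genes, 2 were detected in all libraries, Slc2a9 at 13.9 ± 0.221 TPM and Slc2a8 at 7.97 ± 1.24 TPM, and the next, Slc2a6, averaged 0.163 ± 0.128 TPM.

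Hexokinase, which phosphorylates glucose and so traps it in the cell, was almost wholly Hk1. Hk1, the housekeeping form bound to mitochondria, stood at 94.1, 86.7, 83.99 and 88.3 TPM in replicates 1 to 4. Hk2, the insulin-responsive form of muscle and of many activated or transformed cells, stood at 0.900, 0.401, 1.10 and 0.804 TPM, on 39 to 86 counts per library. Hk3, a form found in myeloid cells, stood at 1.08, 1.29, 1.06 and 1.14 TPM, on 26 to 83 counts. The values of Hk1 did not overlap with those of either of the others. Hk1 made up 97.8 ± 0.255% of the summed hexokinase TPM, and the log2 ratios to Hk2 and Hk3 were 6.68 ± 0.55 and 6.16 ± 0.14, which is 103-fold and 71.3-fold. Between the minor forms there was no stable order: Hk2 was below Hk3 in 3 of 4 libraries, with a log2 ratio of -0.53 ± 0.66, and with no division by length the mean ratio turned to 0.10. The 6 myeloid markers summed to 4.33 to 7.70 TPM per library, and 3 of them were at 1 TPM or more in every library. This sum is too low by an unknown amount, since Itgam, 1 of the markers, was under-counted as given above. The part of myeloid cells in the Hk3 counts was not tested.

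Glucose-6-phosphate isomerase, the product of Gpi1, turns glucose 6-phosphate into fructose 6-phosphate at the point where the pentose phosphate pathway leaves and returns. Gpi1 stood at 253, 240.2, 249.96 and 259 TPM, a range of 1.08-fold, and ranked 578th among 21764 protein-coding genes by mean TPM.

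Phosphofructokinase, the committed step of glycolysis, was the enzyme with the most even mix. Its tetramers are built from liver-type, muscle-type and platelet-type subunits, encoded by Pfkl, Pfkm and Pfkp. Pfkl stood at 51.7, 45.9, 49.3 and 53.3 TPM in replicates 1 to 4. Pfkm stood at 36.5, 38.1, 36.2 and 36.5 TPM. Pfkp stood at 54.5, 56.2, 51.3 and 54.2 TPM. The ranges of Pfkl and Pfkp overlapped across libraries, although within each library Pfkl was the lower, with a log2 ratio to Pfkp of -0.11 ± 0.12. Pfkl made up 35.5 ± 1.88% of the summed subunit TPM, Pfkm 26.1 ± 0.842% and Pfkp 38.4 ± 1.18%. With principal transcript lengths the shares spread apart, to 35.8% for Pfkl, 15.1% for Pfkm and 49.02% for Pfkp, in the same order. All 3 subunits were detected in every library by either length.

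Aldolase, which splits fructose 1,6-bisphosphate into a pair of trioses, was Aldoa. Aldoa, the form of muscle and of most dividing cells, stood at 403, 359, 418 and 413 TPM. Aldoc, the form best known from brain, stood at 2.03, 1.68, 1.70 and 2.14 TPM on 37 to 125 counts per library. Aldoa made up 99.5 ± 0.0491% of the sum, and the log2 ratio of Aldoa to Aldoc, 7.65 ± 0.15, was the largest of the 20 isoenzyme ratios.

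The middle of the pathway has 1 main gene per step, and here the counts of several members were reduced by copies elsewhere in the genome. A fragment that aligns to several places was left out of the deposited counts, so a gene that shares sequence with a processed copy is under-counted. Of the 36 genes, 11 shared 5% or more of their 50-base words with transcripts of genes at another locus, 5 shared over 20% and 18 shared none. Over 100-base words only 5 shared 5% or more and 4 shared over 20%; the fragment lengths are not given in the sources used here, so corrected levels are estimates. The largest share was that of Pgk1, the gene of phosphoglycerate kinase, the first ATP-yielding step, with 53.9%, mostly to its copy Pgk1-rs7. The aligned coding bases of the pair, 1250 of the 1251 in Pgk1, were identical, so a fragment from within them aligns to both. The stretch at coding bases 2 to 61 of Pgk1, shown because the gene and its copy hold the same letters, lies at chrX:106187252-106187311 on the plus strand (GRCm38), in the first coding exon, and at chr12:10900181-10900240 on the minus strand in Pgk1-rs7; it is in lower case throughout because no base differs.
Pgk1 and Pgk1-rs7: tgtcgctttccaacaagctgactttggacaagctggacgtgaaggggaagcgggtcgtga

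Pgk1 stood at 58.8, 66.5, 64.2 and 68.4 TPM in replicates 1 to 4 as deposited, while Pgk1-rs7 held 8 counts over all libraries. Divided by the share of words not found in annotated transcripts of genes at another locus, Pgk1 came to 139.8 TPM on average, 2.17-fold above its counted level of 64.5 ± 4.12 TPM. Pgam1, the gene of phosphoglycerate mutase, which moves the phosphate of 3-phosphoglycerate to the neighbouring carbon, was also affected: 36.2% of its words lay in copies. It stood at 20.4, 18.7, 21.1 and 20.2 TPM, the lowest level among the steps with 1 gene, and at 31.5 TPM after the same division. With 100-base words the divided levels were 133 TPM for Pgk1 and 30.4 TPM for Pgam1. The mean of Tpi1, 47.5 ± 4.08 TPM, lay between those of Pgam1 and Pgk1 before and after the division. With principal transcript lengths, uncorrected, Tpi1 at 56.5 TPM and Pgk1 at 55.01 TPM changed places, and Pgam1 was the lowest at 14.4 TPM.

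Tpi1, the gene of triosephosphate isomerase, which interconverts the pair of trioses, stood at 46.8, 45.5, 53.5 and 44.4 TPM, with 4.18% of words in copies. Replicate 3 was the highest and the other 3 lay between 44.4 and 46.8 TPM. Gapdh, the gene of the oxidising step that makes NADH, stood at 219, 214, 236 and 231 TPM. With 24.7% of its words in copies, the corrected mean of Gapdh was 299 TPM, and with the principal transcript length, uncorrected, it was 455 TPM. The level of Gapdh thus moved with both choices, while its range between libraries was 1.10-fold.

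Enolase, which makes phosphoenolpyruvate, was mainly Eno1 with a clear share of Eno3. Eno1, the ubiquitous form, stood at 242, 231, 246 and 265 TPM in replicates 1 to 4. Eno3, the form known as the muscle enolase, stood at 57.7, 45.8, 55.2 and 42.6 TPM, on 641 to 1395 counts. Eno3 was higher in the 2 shallow libraries, replicates 1 and 3, than in the deep ones, over a range of 1.35-fold. It was 1 of 9 genes among the 36 that were higher there without overlap, against 14.2% of all genes tested. Another 5 were lower there, against 14.7% of all genes tested. Eno1 made up 83.00 ± 2.37% of the summed enolase TPM and Eno3 17.00 ± 2.37%; the log2 ratio of Eno1 to Eno3 was 2.30 ± 0.25. By principal transcript lengths the Eno3 share was 7.92%. Words shared with copies made up 25.99% of Eno1 and none of Eno3, and corrected for them Eno1 took 86.8% of the sum. Of the muscle markers, Ckm and Myh1 had no count in any library, and Tnnt3 was the 1 marker of 5 at 1 TPM or more in every library. The neuronal enolase Eno2 stood at 1.20, 1.02, 1.27 and 0.652 TPM.

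Pyruvate kinase, the last ATP-yielding step, was measured as the gene Pkm, which makes the M1 and M2 forms by choice of exon; gene counts do not part them. Pkm stood at 441, 421, 463 and 455 TPM, next below Ldha in the set per exon base, and 14.2% of its words lay in copies. A further 15.3% of its exon bases lie in exons of Gm49759 on the same strand, where fragments were not counted. With principal transcript lengths Pkm, at 635 TPM, came after Ldha at 749 TPM and Aldoa at 688 TPM. Pklr, the liver and red cell gene, averaged 0.0202 ± 0.0238 TPM.

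Lactate dehydrogenase, which interconverts pyruvate and lactate, had the highest gene of the set. Ldha encodes the M subunit, the form typical of cells that make lactate, and Ldhb the H subunit, typical of heart. Ldha stood at 562, 564, 585 and 592 TPM in replicates 1 to 4, ranking 190th among protein-coding genes. Ldhb stood at 50.1, 53.5, 46.3 and 50.4 TPM. The groups of values lay far apart, the log2 ratio of Ldha to Ldhb was 3.52 ± 0.11, and Ldha made up 91.99 ± 0.564% of the sum, or 94.7% by principal transcript lengths. The coding sequences of the 2 subunits were 71.7% identical over 996 aligned bases, with no shared run over 18 bases, so any longer fragment of either differs from the other in at least 1 base. An aligned stretch of 60 bases, printed to show how the isoenzymes are told apart where a gene and its copy are not, has the 16 differing bases in capitals. It lies at chr7:46847677-46847736 on the plus strand in Ldha (coding bases 58 to 117) and at chr6:142505421-142505480 on the minus strand in Ldhb (coding bases 61 to 120), both GRCm38 and within a coding exon.
Ldha: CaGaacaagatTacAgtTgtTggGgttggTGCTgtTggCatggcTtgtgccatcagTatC
Ldhb: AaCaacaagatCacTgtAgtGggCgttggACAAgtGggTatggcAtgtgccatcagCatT

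Over the 20 isoenzyme pairs the coding identity ran from 58.4% for Slc16a1 and Slc16a3 to 76.7% for Eno1 and Eno3. The longest run of identical bases in any pair was 36 bases, for Pfkfb2 and Pfkfb4.

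Lactate leaves the cell through monocarboxylate carriers. Slc16a1, the gene of the widespread carrier MCT1, stood at 20.6, 22.8, 22.5 and 19.7 TPM in replicates 1 to 4. Slc16a3, the gene of MCT4, the exporter of highly glycolytic cells, stood at 1.71, 1.53, 2.20 and 1.45 TPM, on 66 to 143 counts per library. Slc16a1 made up 92.6 ± 1.12% of the sum, with a log2 ratio to Slc16a3 of 3.58 ± 0.22. Bsg, the gene of basigin, which carries both proteins to the cell surface, stood well above either at 184, 178, 175 and 184 TPM. Ldhd, the gene of the mitochondrial D-lactate dehydrogenase, averaged 8.58 ± 0.786 TPM, and the carrier gene Slc16a7 averaged 0.0860 ± 0.0193 TPM.

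**Figure D2:**
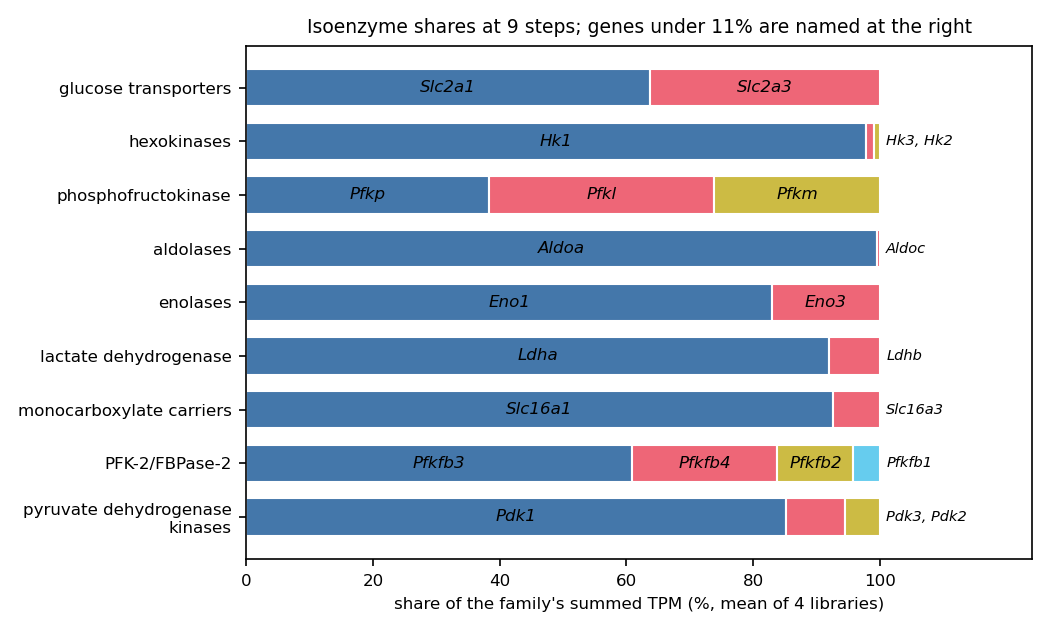
Bars give the share of each gene in the summed TPM of its family, as the mean of 4 libraries, for the 9 steps with more than 1 member, stacked from the highest share at the left. 1 gene took over 80% at 6 of the 9 steps, while the glucose transporters (Slc2a1, 63.7%, but 50.8% with principal transcript lengths and 45.9% of counts), phosphofructokinase (Pfkp, 38.4%) and the PFK-2/FBPase-2 enzymes (Pfkfb3, 60.9%) were mixed.

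The oxidative arm of the pentose phosphate pathway had all 3 of its genes at like levels. G6pdx, the X-linked gene of glucose-6-phosphate dehydrogenase, which opens the arm and makes NADPH, stood at 57.2, 56.7, 52.7 and 61.4 TPM in replicates 1 to 4. Pgls, the gene of the lactonase that follows, stood at 49.6, 41.8, 51.9 and 48.5 TPM, and Pgd, the gene of the second dehydrogenase, at 47.6, 46.03, 48.3 and 45.7 TPM. Per exon base the 3 means lay between 46.9 and 57.0 TPM. By principal transcript lengths they parted, with 45.9 TPM for G6pdx, 140.5 TPM for Pgls and 94.6 TPM for Pgd. A further 20.6% of the exon bases of Pgls lie in exons of Fam129c on the same strand, where fragments were not counted, so no order within the arm can be drawn. H6pd, the gene of the counterpart in the endoplasmic reticulum, averaged 54.6 ± 3.15 TPM, and the copy G6pd2 held 2 counts in all.

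The non-oxidative arm was led by its transferases. Taldo1, the gene of transaldolase, stood at 207, 196, 207 and 202 TPM in replicates 1 to 4. Tkt, the gene of transketolase, stood at 105, 103, 107 and 104 TPM, the narrowest range in the set at 1.04-fold. Taldo1 exceeded Tkt in every library. Rpia, the gene of the isomerase that forms ribose 5-phosphate, stood at 25.8, 28.9, 29.6 and 27.6 TPM. Rpe, the gene of the epimerase that forms xylulose 5-phosphate, stood at 36.1, 36.2, 38.3 and 31.6 TPM. Both transferase genes exceeded Rpia and Rpe in every library. With principal transcript lengths this order of the transferases over the others was kept, at 249 TPM for Taldo1, 147 TPM for Tkt, 56.9 TPM for Rpia and 28.5 TPM for Rpe, while Rpia and Rpe changed places. Downstream of ribose 5-phosphate, the phosphoribosyl pyrophosphate synthetase genes Prps2 and Prps1 averaged 100.2 ± 5.28 TPM and 73.4 ± 6.73 TPM, and the associated gene Prpsap1 78.3 ± 3.57 TPM.

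The bifunctional PFK-2/FBPase-2 enzymes make and break fructose 2,6-bisphosphate, the strongest activator of phosphofructokinase. Pfkfb3, the form with the highest kinase activity relative to phosphatase, stood at 37.7, 37.6, 33.9 and 34.99 TPM in replicates 1 to 4. Pfkfb4, best known from testis, stood at 13.6, 14.03, 13.7 and 12.8 TPM. Pfkfb3 was the higher of these in every library. Pfkfb2, the heart form, stood at 7.16, 7.50, 7.002 and 6.71 TPM. Pfkfb1, the X-linked form of liver and muscle, stood at 2.84, 2.76, 1.75 and 2.56 TPM, on 47 to 194 counts. The ranges of the 4 genes did not overlap, with shares of 4.17 ± 0.713% for Pfkfb1, 11.99 ± 0.343% for Pfkfb2, 60.9 ± 0.572% for Pfkfb3 and 22.9 ± 0.924% for Pfkfb4, and the order was kept with principal transcript lengths. The log2 ratio of Pfkfb1 to Pfkfb3 was -3.83 ± 0.25 and that of Pfkfb2 to Pfkfb3 was -2.33 ± 0.05. The log2 ratio of Pfkfb3 to Pfkfb4 was 1.41 ± 0.07, or 2.65-fold. Exons of Gm29427 on the same strand cover 17.4% of the exon bases of Pfkfb2. Tigar, the gene of a phosphatase that acts on fructose 2,6-bisphosphate, averaged 20.8 TPM, a level named here after it was seen.

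Pyruvate dehydrogenase kinases switch off pyruvate dehydrogenase and so hold pyruvate back from the mitochondria. Pdk1 stood at 207, 225, 202 and 179 TPM in replicates 1 to 4, among the 9 genes above 100 TPM. Pdk2 stood at 13.4, 14.6, 12.5 and 12.4 TPM, and the X-linked Pdk3 at 18.8, 24.6, 21.5 and 22.3 TPM. Pdk1 made up 85.3 ± 1.17% of the summed kinase TPM, or 87.1% by principal transcript lengths, and neither Pdk2 nor Pdk3 came near it in any library. The log2 ratios of Pdk1 to Pdk2 and to Pdk3 were 3.93 ± 0.07 and 3.22 ± 0.19, which is 15.3-fold and 9.29-fold. The log2 ratio of Pdk2 to Pdk3 was -0.72 ± 0.16. Pdk4, the form of fasting and fat oxidation, had no count. The target complex was present throughout: all 10 genes of pyruvate entry and pyruvate dehydrogenase were detected in all libraries, led by the E1 subunit genes Pdha1 and Pdhb at 158 ± 10.03 TPM and 152 ± 12.5 TPM and the E3 subunit gene Dld at 48.02 ± 2.54 TPM.

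The isoenzyme ratios were each tested with the 4 libraries as replicates, by an exact permutation test that flips signs, two-sided, on the mean log2 ratio, adjusted by the Benjamini-Hochberg method over the 20 ratios. In 19 of the 20 ratios the sign was the same in 4 of 4 libraries, each with an exact p of 0.125 and an adjusted p of 0.132, and 13 exceeded 2-fold in every library. The remaining ratio, Hk2 to Hk3, had an exact p of 0.25 and an adjusted p of 0.25. With 4 libraries the smallest p the test allows is 0.125, from 2 of the 16 sign patterns, so none could pass 0.05. A sign held in every library is a statement about these libraries and, as shown for Slc2a1 and Slc2a3, about the lengths used.

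**Figure D3:**
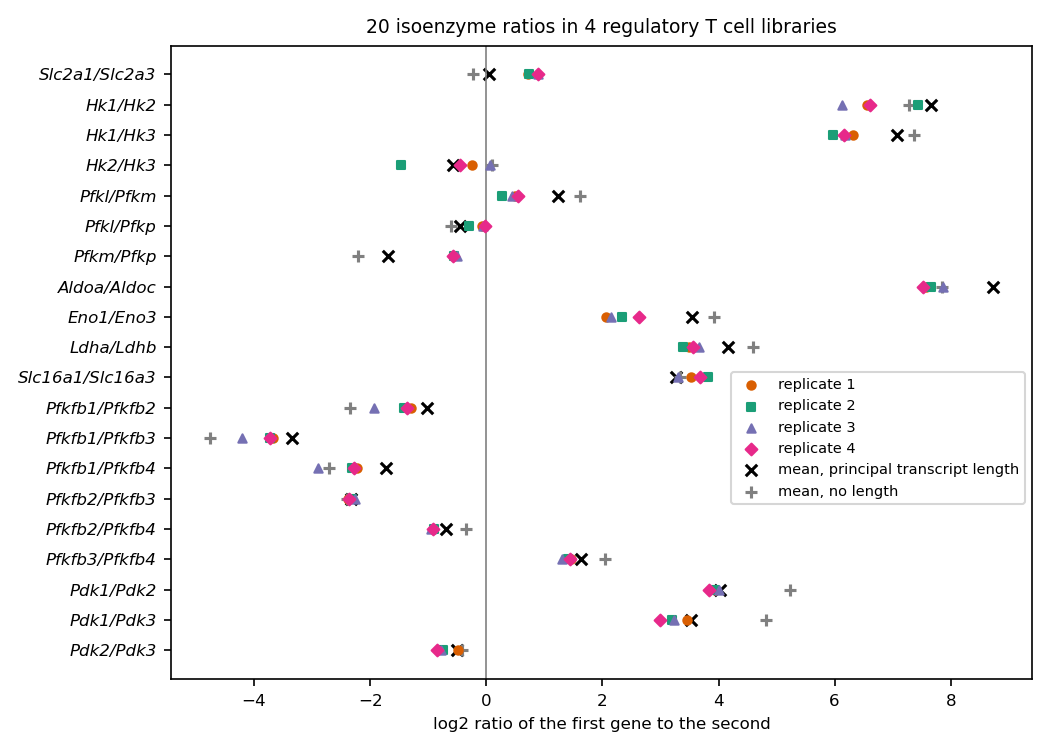
Coloured points give the log2 ratio of the first gene to the second in each of the 4 libraries, from TPM plus 0.1; the black cross is the mean with principal transcript lengths and the grey plus the mean from CPM with no division by length. Hk2/Hk3 has points on both sides of 0, the grey plus of Slc2a1/Slc2a3 lies on the opposite side of 0 from its points (-0.24 against 0.81), and the other 18 pairs stay on 1 side.

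In edgeR, a gene was called variable where its residual deviance around the mean of the 4 libraries had an adjusted p under 0.05. All 36 genes passed the filter on low counts and 0 of 36 were called, against 1.13% of all genes tested (142 of 12554). At an unadjusted p under 0.05 there were 2 of the 36, Eno3 (edgeR adjusted p = 0.707) and Hk2 (edgeR adjusted p = 0.746), which is 5.56% against 5.23% of all genes. DESeq2's size factors and dispersion trend also called 0 of 36, against 119 of the 12554 genes tested. At an unadjusted p under 0.05 this setting had 1 of the 36, against 576 of the 12554. With edgeR's common dispersion in place of the trend, Hk2 alone was called (adjusted p = 0.00723), on its 39 to 86 counts per library; that is 1 of 36, against 2.8% of all genes tested under this setting. A call missed at this number of libraries does not show that a gene did not vary.

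The median SD of log2(CPM + 1), where CPM is the count scaled to the library total with TMM factors, was 0.0851 over the 36 genes and 0.0992 over all genes tested. The widest spreads were those of Hk2 (0.339), Pfkfb1 (0.225), Eno3 (0.200) and Slc16a3 (0.197), of which all but Eno3 were below 5 TPM. Replicate 2 held the lowest Hk2 value, at 0.401 TPM, and replicate 3 the lowest Pfkfb1 value, at 1.75 TPM. The values of the X-linked genes Pgk1, G6pdx and Pdk3 each overlapped between replicates 1 and 2, which held Xist RNA, and replicates 3 and 4, which held Y-linked RNA. Pfkfb1 stood at 2.84 and 2.76 TPM in replicates 1 and 2 and at 1.75 and 2.56 TPM in replicates 3 and 4. In all, 7 of the 36 genes were higher by TPM in replicates 1 and 2 than in 3 and 4 with no overlap, against 25% of all genes tested. These were Slc2a3, Pfkp, Pfkfb1, Pfkfb2, Pfkfb3, Pdk1 and Pdk2. Another 5, Aldoa, Gapdh, Eno1, Pkm and Ldha, were lower there with no overlap, against 11.7% of all genes tested. With CPM on TMM factors the counts were 6 and 8, against 17.6% and 16.8% of all genes tested, and each of these 12 genes except Pfkp was again without overlap. The part of sex in this was not tested.

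**Figure D4:**
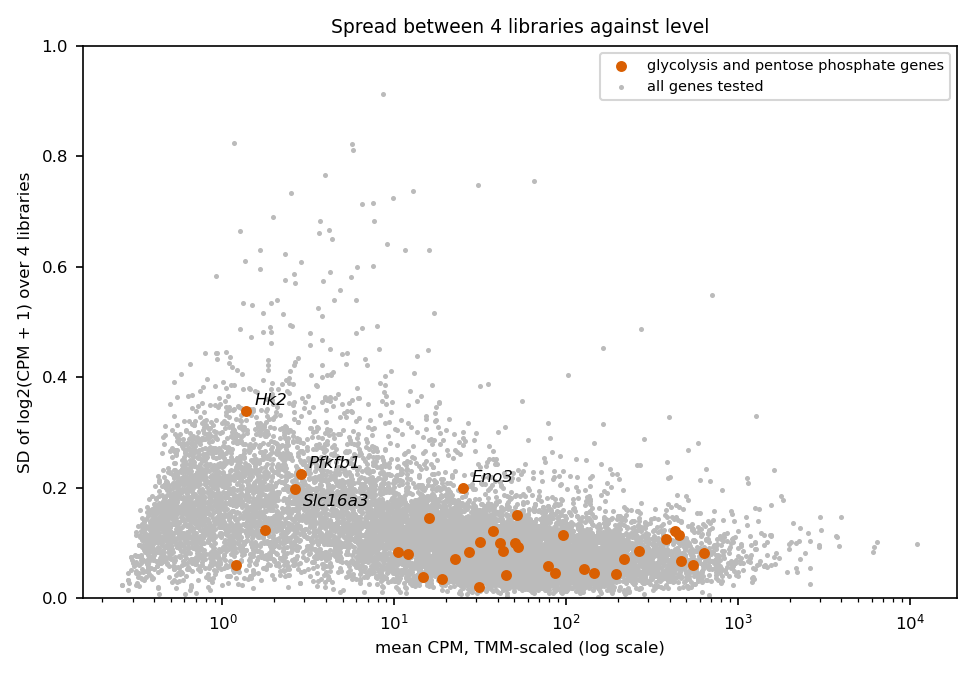
Each grey dot is 1 of 12554 genes tested and each orange dot 1 of the 36 genes, with the mean CPM on a log axis against the SD of log2(CPM + 1) over 4 libraries; 4 genes above the axis limit of 1 are not shown. The orange dots lie within the grey cloud, and Hk2, Pfkfb1, Eno3 and Slc16a3 have the widest spreads.

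The wider pathway was read from 71 further measured genes, of which 42 were detected in all libraries and 12 had no count. None of the 44 that could be tested was called variable in edgeR, against 1.13% of all genes tested. At an unadjusted p under 0.05 there was 1 of the 44, against 5.23% of all genes tested. Of 8 genes of gluconeogenesis and glucose release, 3 were detected: G6pc3, the widely expressed glucose-6-phosphatase, averaged 41.2 ± 2.25 TPM, Pck2, the mitochondrial phosphoenolpyruvate carboxykinase, 39.3 ± 1.99 TPM, and Pcx, pyruvate carboxylase, 4.91 ± 0.453 TPM. The other 5 genes of that group, G6pc, G6pc2, Fbp1, Fbp2 and Pck1, had no count. A count of 0 allows up to 3 counts, which for these 5 and for the 4 glycolytic isoenzymes without a count (Gapdhs, Pgk2, Pgam2 and Pdk4) is at most 0.128 to 0.535 TPM depending on the gene, for counting error only.

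Among other enzymes at glycolytic steps, Minpp1, an inositol polyphosphate phosphatase that also acts on 2,3-bisphosphoglycerate, averaged 74.7 ± 3.69 TPM. Adpgk, the ADP-dependent glucokinase, averaged 51.2 ± 2.23 TPM, and Bpgm, which makes 2,3-bisphosphoglycerate, 21.4 ± 1.72 TPM. Of 10 glycogen genes 9 were detected, led by the brain-type phosphorylase Pygb at 105 ± 4.10 TPM and the phosphoglucomutases Pgm1 at 42.3 ± 2.01 TPM and Pgm2 at 36.4 ± 3.63 TPM. Among the regulators, Txnip, whose product promotes the removal of glucose transporters from the surface, was far above every gene of the set, at 1398, 1571, 1426 and 1301 TPM in replicates 1 to 4. The transcription factor genes Myc and Mlx averaged 135 ± 10.1 TPM and 126 ± 2.91 TPM. Of 7 further genes listed as relatives or copies of members, Pgk1-rs7 shared 100% of its 50-base words with Pgk1 and Eno1b 76.4% with Eno1, while Pgam1-ps1 shared 28.1% with Pgam1, Aldoart1 4.69% with Aldoa, and Aldoart2 and Tpi-rs2 none with a member. All 7 averaged below 1 TPM: Eno1b averaged 0.731 ± 0.201 TPM, Pgk1-rs7 0.202 ± 0.346 TPM, Aldoart2 0.172 ± 0.102 TPM, Aldoart1 0.117 ± 0.0904 TPM and Pgam1-ps1 0.0190 ± 0.0381 TPM, while Tpi-rs2 and Ldha-ps had no count.

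Promoter sequence was examined for 35 of the 36 genes, which had 55 promoters (250 bases before to 50 after a transcription start) in the RefSeq table on GRCm38.p6; Slc2a3 was not used here. The E-box CACGTG, the site known for Myc and related factors, was found in promoters of 6 of 35 genes, Ldha, Slc16a1, Pfkfb3, Pfkfb2, Pfkm and Pdk2. That is 17.1% of the 35 genes against 8.09% of all genes with a listed promoter. By promoter it was 10.9% of their 55 against 7.15% of all 32851. The core of this E-box, ACGTG, also the core of the hypoxia response element, was found on either strand in 41.8% of these promoters against 19.6%. Every CACGTG contains it. The GC box GGGCGG was found in 56.4% against 35.7%, CCAAT in 38.2% against 37.4%, and TATAAA in 3.64% against 13.6%, here in Slc2a1 and Pfkfb1. The 32851 promoters include those of genes not detected in these libraries, while nearly all of the 36 genes were detected. A comparison with promoters of detected genes only was not made. A match is a description of letters in this window and not a measured site, and no factor binding was measured here. The promoters of the 3 genes that led their families and held CACGTG are shown, with that motif in capitals.
Ldha promoter (chr7:46845554-46845853, plus strand): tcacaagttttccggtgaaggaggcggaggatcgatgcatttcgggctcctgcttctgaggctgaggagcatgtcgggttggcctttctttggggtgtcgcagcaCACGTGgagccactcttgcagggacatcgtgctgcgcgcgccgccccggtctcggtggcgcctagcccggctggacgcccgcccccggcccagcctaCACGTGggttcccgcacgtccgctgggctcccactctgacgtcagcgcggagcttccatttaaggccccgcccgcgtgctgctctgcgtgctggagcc
Slc16a1 promoter (chr3:104638414-104638713, plus strand): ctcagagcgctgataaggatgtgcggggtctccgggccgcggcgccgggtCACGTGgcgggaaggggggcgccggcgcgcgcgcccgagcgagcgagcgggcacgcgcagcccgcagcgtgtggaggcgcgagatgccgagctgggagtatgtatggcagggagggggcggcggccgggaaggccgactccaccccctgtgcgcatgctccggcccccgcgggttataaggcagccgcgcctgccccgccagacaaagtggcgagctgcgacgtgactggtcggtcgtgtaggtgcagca
Pfkfb3 promoter (chr2:11502041-11502340, minus strand): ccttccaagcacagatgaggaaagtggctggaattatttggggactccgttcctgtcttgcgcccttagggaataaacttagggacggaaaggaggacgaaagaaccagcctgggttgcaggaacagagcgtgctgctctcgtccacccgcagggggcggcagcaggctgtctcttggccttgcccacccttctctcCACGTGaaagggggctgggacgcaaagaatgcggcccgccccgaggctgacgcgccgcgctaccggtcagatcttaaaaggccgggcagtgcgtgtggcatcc

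In Ldha the matches began 145 and 48 bases before the annotated start, in Slc16a1 the match began 200 bases before it, and in Pfkfb3 it began 53 bases before it. Ldha and Pfkfb3 each had 2 promoters in the table, of which 1 held the motif, and the counts do not tell which start was used. Of the minor genes of the same steps, Pfkfb2 also held CACGTG in this window, while Ldhb, Slc16a3, Pfkfb1 and Pfkfb4 did not. In other families it was found in Pfkm and Pdk2, which were not the leading genes, and not in Hk1, Pdk1 or Aldoa, which led theirs.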

How the data were processed

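RNA of 4 libraries of 1 group was counted per gene. The deposited values are raw counts of fragments, made per the file headers on the build mm10 with the exons of GENCODE M13, by featureCounts 1.4.6-p4, from paired reads with both ends aligned and strand setting 2. Per the file headers no option was set to count fragments with several alignments or over several genes. The exon length, another deposited value in bases, comes from the same files. The labels give the molecule as total RNA while the cited library protocol is titled for poly(A) RNA.

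Here TPM was computed from counts and exon length. Symbols, coordinates (1-based, GRCm38) and transcripts came from GENCODE M21, matched by gene ID for 50376 of 50600 genes (99.56%). Principal transcripts are those so tagged by APPRIS. Sharing with copies was measured over all 50-base words of a gene's transcripts, leaving out genes at the same locus, and corrected levels were not rescaled. Ratios used log2(TPM + 0.1). Variable genes were tested with edgeR 4.0.16 in R 4.3.3 (filterByExpr, TMM, intercept only, trended dispersion, 3 degrees of freedom, adjusted p under 0.05), a step tested on simulated data; DESeq2 1.42.0 gave alternatives. Other values used Python 3.11.15 with scipy 1.17.1. The files hold no other columns of samples. Chi-square per degree of freedom between the counts was 6.71 or more in every pair of the 4 libraries. Counting error alone does not give such values, so the libraries of every pair differed by more than counting error. No pair known to be the same library sequenced again was at hand for comparison, so that case was not tested. The chi-square values do not tell separate animals from separate preparations of the same RNA. Xist and Ddx3y part replicates 1 and 2 from replicates 3 and 4, but not the libraries within either of these pairs.

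The members, lists and tests were chosen with earlier results of these data known. Named are all 36 members, the 3 highest genes of each wider group, the listed copies, the regulatory T cell markers and the highest of each other marker list; other genes were named after their values were seen. Of the wider list, Rpel1 and Gm5506 matched no gene, and some listed genes are not reported here. Promoters came from RefSeq. Protein sequences and a genome sequence were not used here. Alternatives changed pseudocounts, thresholds, lengths, scaling, dispersion and filters, and left out each library; those with principal transcript lengths or copy corrections were chosen after seeing the data.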

Additional observations from a re-analysis of the deposited data

Results flagged for a closer look

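Replicate 3 lay apart from the other libraries for Pfkfb1, the X-linked gene of the liver and muscle form of PFK-2/FBPase-2, in 3 related values out of 74 checked. The gap to the nearest library exceeded the 95% limit for 4 samples, a limit that chance alone passes in about 1 in 20 groups. The log2 ratio of Pfkfb1 to Pfkfb3 was -4.20 in replicate 3 and between -3.72 and -3.68 in the others. The log2 ratio of Pfkfb1 to Pfkfb4 was -2.89 in replicate 3 and between -2.31 and -2.22 in the others. The share of Pfkfb1 in the summed PFK-2/FBPase-2 TPM was 3.11% in replicate 3 and between 4.45% and 4.64% in the others. The 3 values rest on the same 47 counts of Pfkfb1 in replicate 3, the shallowest library, and edgeR did not call Pfkfb1 variable (adjusted p = 1.00).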

How the results depend on the processing

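Of the 20 isoenzyme ratios, 20 kept their direction with 1 TPM or 0.01 TPM added in place of 0.1, with principal transcript lengths, with either copy correction, and without each replicate in turn. For the 19 with the same sign in all 4 libraries, another added amount or a replicate left out could not turn the mean. Those checks were open for Hk2 to Hk3 only. With CPM and no length, 18 of the 20 kept their direction. The log2 ratio of Slc2a1 to Slc2a3 turned to -0.24 and that of Hk2 to Hk3 to 0.10, since only the length differs. The genes called variable numbered 139 with DESeq2 size factors, 119 with DESeq2 size factors and dispersion trend, 88 with no filter, 352 with edgeR's common dispersion, and 60 to 85 without each replicate in turn, against 142; members called numbered 0 in all of these except 1, Hk2, with the common dispersion. Members detected numbered 31 at 5 TPM, 34 with principal transcript lengths and 35 in the other 6 alternatives. The share of the gene that led its family by TPM per exon base moved by more than 1 SD as follows. As a share of counts it was 45.9% for Slc2a1 (against 54.1% for Slc2a3), 98.8% for Hk1, 53.4% for Pfkp, 99.6% for Aldoa, 93.8% for Eno1, 96.0% for Ldha, 91.2% for Slc16a1, 68.1% for Pfkfb3 and 94.2% for Pdk1. With principal transcript lengths it was 50.8% for Slc2a1, 98.9% for Hk1, 49.0% for Pfkp, 99.8% for Aldoa, 92.1% for Eno1, 94.7% for Ldha, 91.1% for Slc16a1, 61.9% for Pfkfb3 and 87.1% for Pdk1. Corrected for copies it was 86.8% for Eno1 and 90.9% for Ldha. Mean levels stayed within 1 SD for 36 of 36 members with TMM-scaled TPM and without each replicate, for 5 with principal transcript lengths and for 25 with the copy correction. Leaving out 1 of 4 libraries cannot move a mean by as much as 1 SD, so the outcome without each replicate was fixed in advance. Alternatives that needed lengths unique in the genome were not run, as no genome sequence was used here. No paired analysis was possible because all libraries belong to 1 group. Depth limits Hk2, Hk3 and Aldoc, which had 26 to 125 counts per library.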
